A study of Mus musculus with 6 samples.

Results

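The genes described here encode the subunits of the phagocyte NADPH oxidase, which makes superoxide, and the superoxide dismutases, which remove it. They were chosen by name as Cybb, Cyba, Ncf1, Ncf4, Rac1, Rac2, Sod1, Sod2 and Sod3, and every non-control array probe whose RefSeq accession belongs to one of them was taken. This gave 11 probes of 39429 on the array and 9 genes of 20283 with a named probe. The RNA came from macrophages grown out of the bone marrow of C57BL/6 mice aged 6 to 8 weeks and labelled as polarized M2 (alternatively activated) cells, which were kept for 6 h in complete DMEM with WGP or for 6 h in complete DMEM without WGP. WGP stands for whole glucan particles, yeast cell walls stripped down to mostly beta-glucan, which macrophages bind through the receptor dectin-1 and take up. Cy3-labelled cRNA was hybridised to 1-colour Agilent arrays, and the labels name neither the agent that polarized the cells nor the number of animals or cultures. All 9 genes passed the filter on dim probes, 8 of them with signal well above background on every array and Sod3 only through the WGP arrays.

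There were 3 deposited files for each group, of which replicates 1 and 2 were independent arrays. In replicate 3 of both groups the spot signals before processing differed from those of replicate 1 at 0 of 44397 spots, so these files were left out and n = 2 arrays per group. Nothing in the labels says that replicates 1 and 2 came from separate cultures, so the spread behind each p-value is that between these samples and may be technical. The 75th percentile of the processed signal was 59.2 and 55.9 with WGP and 86.1 and 68.7 in medium. The share of probes well above background was 46.6% and 45.0% with WGP and 50.7% and 46.6% in medium. Replicate 1 of both groups lay on the same slide and replicate 2 of both groups on another, with WGP at position 3 and medium at position 1 of each, so the position on the slide cannot be told apart from the treatment. Of 8 macrophage markers, 7 had a named probe, and these were well above background on all 4 arrays, while the M2 markers Arg1 and Retnla were well above background on none. Of the 7 macrophage markers, 4 differed between the groups at an adjusted p under 0.05 in limma (57.1%, beside 40.7% of all tested genes). Cd14 was higher and Mertk, Fcgr1 and Lyz2 lower with WGP (changes of 1.18, -1.88, -1.19 and -0.47, adjusted p of 0.0038, 0.0017, 0.0057 and 0.0308 in limma). The M2 markers Mrc1 and Clec10a were lower with WGP (adjusted p of 0.0147 and 0.00127 in limma), and Cd163 at least 2.43-fold lower. Of the B cell markers, Cd79a was well above background on 1 and Cd79b on 0 of the 2 WGP arrays, and Cd79b was at least 5.02-fold lower with WGP. Cd163, Cd79a and Cd79b passed the filter only through the medium arrays, where they are high, so no test is given for them. The call of Cd163 in the count above adds no support. The summed level of the 3 markers of that list, as a multiple of each array's 75th percentile, was 0.199 and 0.247 with WGP and 0.898 and 0.704 in medium, Ms4a1 was well above background on no array, and the part of these cells in the results was not tested. Of 10 neutrophil markers, a cell type rich in this oxidase, 4 could be tested and limma called 0 (1 at an unadjusted p under 0.05). The summed level of the list was 20.1 and 19.9 with WGP and 23.7 and 19.2 in medium, most of it from Elane alone. Elane, S100a8, S100a9 and Camp were well above background on all 4 arrays and changed by 0.07, 0.08, -0.90 and 0.63. Camp was the gene at an unadjusted p under 0.05 in limma. Mpo and Cxcr2 were well above background on some arrays, and Ltf, Ngp and Retnlg on none. In bulk RNA, fewer cells of a type and less RNA per cell cannot be told apart.

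The phagocyte NADPH oxidase has a membrane core, the flavocytochrome formed by gp91phox (Cybb, also called NOX2) and p22phox (Cyba). In resting cells further subunits, among them p47phox (Ncf1) and p40phox (Ncf4), wait in the cytosol, and they move to the membrane together with a Rac GTPase when the cell meets a particle. The assembled enzyme passes electrons from NADPH to oxygen, and the superoxide that results is converted to hydrogen peroxide by superoxide dismutases in the cytosol (Sod1, copper and zinc), the mitochondrial matrix (Sod2, manganese) and the extracellular space (Sod3, copper and zinc).

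The comparison asked which of these transcripts differed after 6 h with WGP. The mitochondrial dismutase Sod2 was 12.6-fold higher, the p40phox gene Ncf4 3.45-fold higher and the flavocytochrome genes Cybb and Cyba 2.14-fold and 1.76-fold higher. The extracellular dismutase Sod3 was at least 2.95-fold higher on the processed signal. With another background correction (normexp) its log2 change was 0.41, which is under that bound. The GTPase Rac2 was 2.25-fold lower and the p47phox gene Ncf1 1.46-fold lower. Rac1 and Sod1 did not pass the test. In limma's test with Benjamini-Hochberg adjustment over 10948 genes, 7 of the 9 genes were called at an adjusted p under 0.05, 5 higher and 2 lower with WGP, and 5 of them by at least 2-fold. Over all tested genes the share called was 40.7%, with 23.5% higher and 17.2% lower, and 14.7% were called and at least 2-fold changed. Sod3, which is in these counts, could be tested only because its WGP arrays were bright, so its call adds no support. The groups' arrays did not overlap in 8 of the 9 genes, as in 75% of all tested genes. The median change of the 9 genes was 0.82 on the log2 scale, beside 0.03 for all tested genes, and their median absolute change was 1.10, beside 0.41. The 9 genes were chosen by name with earlier results of these data known, so these shares describe the set and say nothing particular to it. The same holds for the shares of the lists of related genes given further below.

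**Figure D1:**
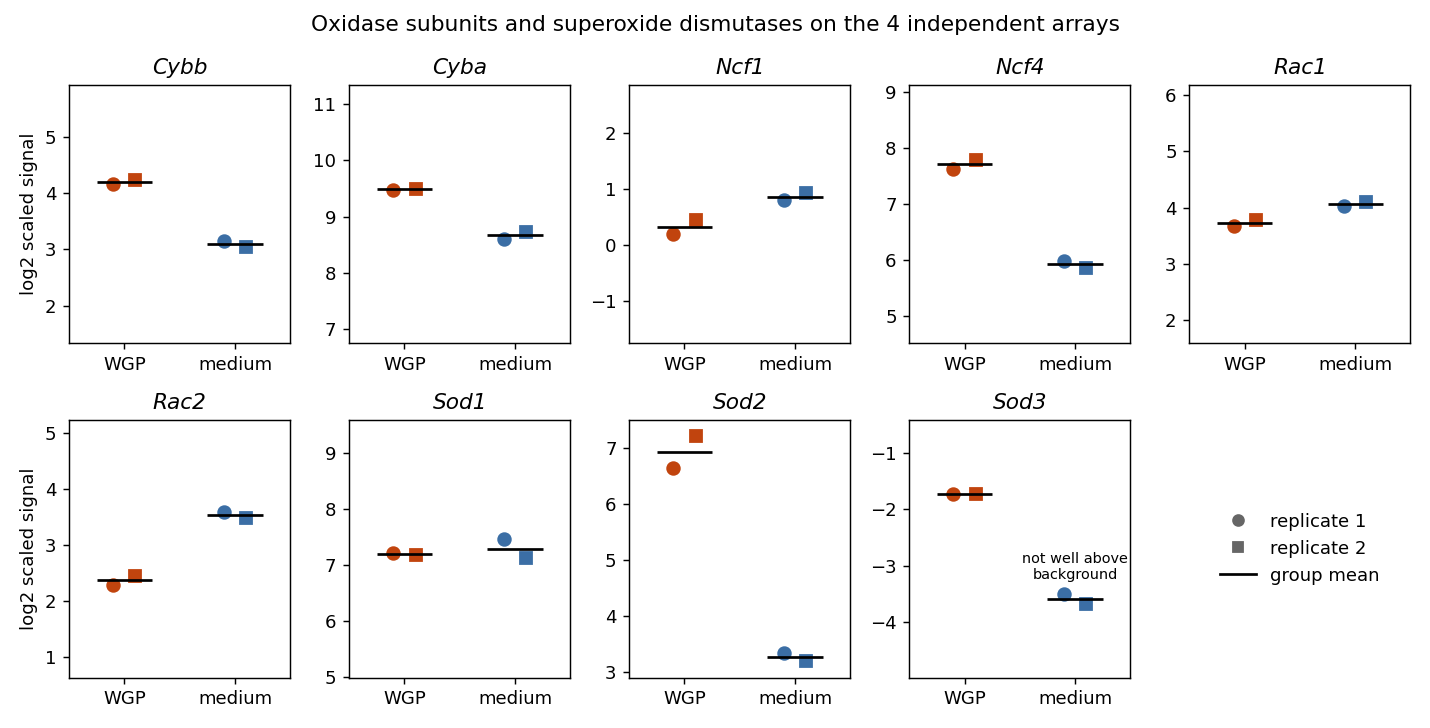
Level of each of the 9 genes on the 4 independent arrays, in log2 units relative to the array's 75th percentile, with WGP on the left and medium on the right of each panel, a circle for replicate 1, a square for replicate 2 and a bar for the group mean. Every panel spans the same range of 4.6 log2 units. Sod2 moves farthest, with a mean of 6.92 with WGP against 3.26 in medium, and the arrays of the groups overlap only in Sod1.

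All levels are log2 values of the processed signal, less the 75th percentile of their array, and a change is the WGP level minus the medium level. Cybb encodes gp91phox, the subunit that carries the electrons across the membrane. Its level (probe A_55_P2082733) was 4.16 and 4.23 on the WGP arrays and 3.16 and 3.04 on the medium arrays. Every WGP array lay above every medium array, by about the same distance on each slide (1.00 and 1.19). The change was 1.10 ± 0.10 (SE, n = 2 per group, adjusted p = 0.00436 in limma). Cyba encodes p22phox, which stabilises gp91phox and docks p47phox. On its brighter probe (A_55_P1979341) the level was 9.48 and 9.49 with WGP and 8.60 and 8.73 in medium. The second Cyba probe (A_51_P131800) read 4.97 and 5.03 with WGP and 4.04 and 4.11 in medium. Both probes were thus higher on every WGP array, with changes of 0.82 ± 0.10 (SE, adjusted p = 0.00768 in limma over genes) for the brighter and 0.92 ± 0.10 (SE, adjusted p = 0.00877 in limma over 18443 probes) for the second. Of the 11 member probes, 6 were called higher and 3 lower in that fit, which called 34.3% of all its probes, 18.9% higher and 15.4% lower. The rises of the membrane partners differed by 0.28 ± 0.13 (SE, Cybb minus Cyba, 0.13 and 0.44 on the slides).

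The promoters of the flavocytochrome genes are shown because these transcripts rose together and their promoters differ in base composition. They are the RefSeq sequences of build GRCm38.p6, from 250 bases before to 50 bases after the annotated start, on the gene's own strand. Capitals mark matches on either strand to the GC box GGGCGG, to GAGGAA, the core of the site of the myeloid factor PU.1, and to the kappaB consensus. Cybb lies on the minus strand at chrX:9469275-9469574 and Cyba on the minus strand at chr8:122432891-122433190.
Cybb: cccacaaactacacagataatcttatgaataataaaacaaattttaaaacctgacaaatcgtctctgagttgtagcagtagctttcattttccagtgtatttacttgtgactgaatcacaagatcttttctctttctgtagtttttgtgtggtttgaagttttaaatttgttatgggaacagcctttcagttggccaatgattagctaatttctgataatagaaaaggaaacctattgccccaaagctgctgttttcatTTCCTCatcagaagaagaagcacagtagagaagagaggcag
Cyba: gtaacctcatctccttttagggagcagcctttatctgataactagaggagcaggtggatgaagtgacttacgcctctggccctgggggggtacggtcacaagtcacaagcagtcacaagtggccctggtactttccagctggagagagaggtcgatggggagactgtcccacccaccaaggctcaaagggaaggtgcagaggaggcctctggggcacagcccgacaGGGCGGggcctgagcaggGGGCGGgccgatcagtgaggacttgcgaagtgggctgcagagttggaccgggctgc
The Cybb promoter had a G and C content of 35.3%, with 0 GC boxes and 1 PU.1 core, and the Cyba promoter 60.7%, with 2 GC boxes and 0 PU.1 cores. Among 32851 promoters of this length in the RefSeq table, 35.7% held a GC box, 28.3% a PU.1 core and 8.46% a kappaB consensus. A match is a description of the letters and not a binding site.

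The cytosolic subunits went opposite ways. Ncf4 encodes p40phox, which binds a phosphoinositide of phagosome membranes and helps to hold the oxidase there. Its level was 7.63 and 7.78 with WGP and 5.98 and 5.86 in medium. Ncf4 was higher on each WGP array than on any medium array, by 1.65 and 1.93 within the slides. The change of 1.79 ± 0.11 (SE, adjusted p = 0.00221 in limma) was exceeded by the rises of 326 of the 10948 tested genes. Ncf1 encodes p47phox, the organizer whose phosphorylation starts assembly. It had levels of 0.19 and 0.45 with WGP and 0.81 and 0.92 in medium. The WGP arrays were lower on both slides, by 0.62 and 0.47 (log2 changes of -0.62 and -0.47). Ncf1 changed by -0.55 ± 0.13 (SE, adjusted p = 0.0368 in limma), a call that sat close to the threshold. With WGP replicate 1, WGP replicate 2, medium replicate 1 or medium replicate 2 left out, Ncf1 no longer passed (adjusted p of 0.149, 0.063, 0.0844 and 0.126), nor did it with median scaling (0.155) or without the filter on dim probes (0.149). Within an array, Ncf4 moved against Ncf1 by 2.33 ± 0.13 (SE, Ncf4 minus Ncf1), with 2.27 on slide 1 and 2.40 on slide 2. For such a difference between 2 genes, an exact two-sided permutation test of 2 against 2 arrays cannot go below p = 0.333.

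Rac GTPases help to switch the assembled oxidase on, with Rac2 restricted to blood cells and Rac1 found in most tissues. The Rac2 probe was printed in 10 spots, which gave a measure of the error within an array. The spots ranged from 2.19 to 2.35 and from 2.31 to 2.50 on the WGP arrays, and from 3.47 to 3.65 and from 3.32 to 3.55 on the medium arrays. No spot on a WGP array reached the lowest spot of a medium array, and the SD between spots was 0.047 and 0.057 with WGP and 0.055 and 0.070 in medium. The spot means were 2.28 and 2.45 with WGP and 3.59 and 3.48 in medium. Rac2 changed by -1.17 ± 0.12 (SE, adjusted p = 0.00476 in limma), and 615 of the tested genes fell further. Rac1 read 3.67 and 3.78 with WGP and 4.03 and 4.10 in medium on its brighter probe (A_55_P2076489). Its second probe (A_51_P513254) read 1.81 and 1.89 with WGP and 2.29 and 2.47 in medium. Both probes were lower on every WGP array, by amounts under those of Rac2. The brighter probe missed the threshold (-0.34 ± 0.10, SE, 95% confidence interval from -0.62 to -0.07, adjusted p = 0.0592 in limma over genes), while the second passed it over probes (-0.53 ± 0.12, SE, adjusted p = 0.0377 in limma). With the replicate block, that is the slide as a term in the fit, the second probe no longer passed (adjusted p = 0.0529). It also failed to pass without any 1 of the 4 arrays (adjusted p of 0.058 to 0.164). Within arrays, the fall of Rac2 exceeded that of Rac1 by 0.83 (Rac2 change minus Rac1 change of -0.83 ± 0.09, SE, with -0.94 and -0.71 on the slides).

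**Figure D2:**
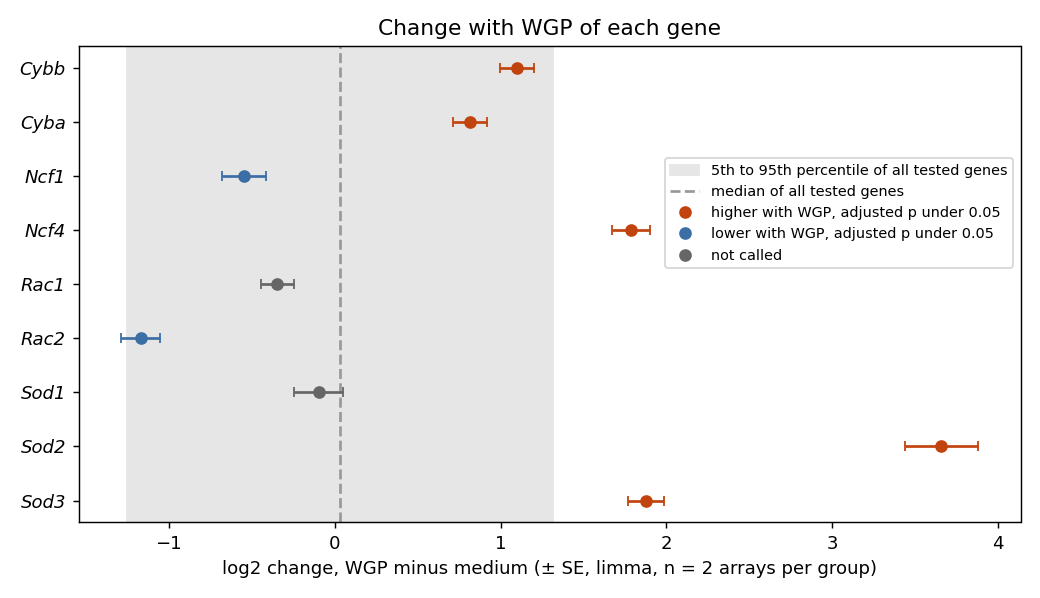
Log2 change, WGP minus medium, of each gene with its SE from limma (n = 2 arrays per group), colored by call. The shaded band holds the 5th to 95th percentile of the changes of all 10948 tested genes (-1.25 to 1.32) and the dashed line their median of 0.03. Ncf4 and Sod2 lie beyond the band, and Rac2 at -1.17 lies just inside it. Sod3 is drawn at its fitted change of 1.88, though neither medium array was well above background. It passed the filter only through the WGP arrays, so its place, SE and color add no support. With normexp background correction its change was 0.41, inside the band.

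The dismutases of the 3 compartments differed in what they did. Sod2, the manganese enzyme of the mitochondrial matrix, had levels of 6.64 and 7.20 with WGP and 3.33 and 3.19 in medium. The WGP arrays lay far above the medium arrays and also farther from each other, with an SD of 0.40 with WGP and 0.10 in medium. The change was 3.66 ± 0.22 (SE, adjusted p = 0.00203 in limma), with 3.31 on slide 1 and 4.01 on slide 2. Of all tested genes, 45 had a larger rise than Sod2. Sod1, the copper and zinc enzyme of the cytosol, had levels of 7.21 and 7.18 with WGP and 7.45 and 7.12 in medium. The groups overlapped, and the slides gave opposite signs (-0.25 and 0.05). For Sod1 the difference of -0.10 ± 0.15 (SE, adjusted p = 0.628 in limma) had a 95% confidence interval from -0.50 to 0.30, so changes within that range were not excluded by these arrays. Its sign turned with median scaling (0.07) and without medium replicate 1 (0.07). Sod3, the secreted copper and zinc enzyme, read -1.72 and -1.72 with WGP and -3.51 and -3.68 in medium. Both WGP arrays were well above background and neither medium array was, so only a bound on the fold can be given. For the bound, each medium array was given the dimmest level at which any probe was well above background there. Where the Sod3 level was higher, that level was used instead. Sod3 was then at least 2.95-fold higher with WGP (fitted change 1.88). It passed the filter only through the WGP arrays, where it is high, so no p-value is given. With normexp background correction the fitted change was 0.41, so the bound does not hold under every background correction.

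The promoters of Sod2 and Sod1 are shown in the same way, since these dismutase transcripts differed most in response. Both are on the plus strand, Sod2 at chr17:13007589-13007888 and Sod1 at chr16:90220512-90220811.
Sod2: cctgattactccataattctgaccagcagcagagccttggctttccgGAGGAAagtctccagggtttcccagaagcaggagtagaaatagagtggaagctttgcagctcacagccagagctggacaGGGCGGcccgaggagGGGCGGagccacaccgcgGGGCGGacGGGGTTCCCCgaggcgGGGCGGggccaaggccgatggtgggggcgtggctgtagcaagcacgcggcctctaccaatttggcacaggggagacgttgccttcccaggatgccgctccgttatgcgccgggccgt
Sod1: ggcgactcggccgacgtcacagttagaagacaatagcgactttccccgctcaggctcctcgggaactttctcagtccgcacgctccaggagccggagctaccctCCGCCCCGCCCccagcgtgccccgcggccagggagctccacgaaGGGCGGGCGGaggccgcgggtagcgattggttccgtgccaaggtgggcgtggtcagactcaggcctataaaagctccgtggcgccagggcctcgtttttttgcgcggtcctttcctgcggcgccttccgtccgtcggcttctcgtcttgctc
Each of these promoters held 4 GC boxes, some of them overlapping in Sod1, and 5.49% of the 32851 promoters held at least 4. The Sod2 promoter also held 1 PU.1 core and 1 kappaB consensus, which does not overlap its GC boxes, and the Sod1 promoter held 0 of either. Of the 9 genes, 5 were found in the RefSeq promoter table, and the fifth of them, Ncf1, had 1 GC box and 0 matches to the other motifs. Entries were not found for Ncf4, Rac1, Rac2 and Sod3.

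The 3 tested genes whose pattern over the 4 arrays lay nearest to that of Sod2 were A530064D06Rik, Zfp503 and Ass1. After each gene was centred on its mean, their root mean square differences from Sod2 were 0.12, 0.13 and 0.15 log2 units. Their levels were 0.39 and 0.62 with WGP and -3.11 and -3.22 in medium for A530064D06Rik, which was well above background on 1 of the 2 medium arrays, and 2.13 and 2.34 with WGP and -1.38 and -1.41 in medium for the zinc finger gene Zfp503. Ass1, which encodes the enzyme that makes argininosuccinate from citrulline, read 3.74 and 3.93 with WGP and 0.29 and 0.29 in medium. With 2 groups and 2 arrays each, likeness by this measure is mostly likeness in the size of the change. With normexp background correction those sizes parted, at 1.21 for A530064D06Rik, 2.18 for Zfp503 and 2.69 for Ass1, against 3.24 for Sod2.

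Further subunits and supports of the oxidase family were mostly dim or did not pass the test. Of 13 such genes, 11 had a named probe, 5 could be tested, 1 rose and 1 fell. The share called was 40.0% of those tested, near the 40.7% of all tested genes. Their median change was -0.38, against 0.03 for all tested genes. The gene that rose was Hvcn1, the voltage-gated proton channel that lets protons out as the oxidase moves electrons. Its level was 6.35 and 6.32 with WGP and 4.04 and 3.99 in medium, a change of 2.32 ± 0.09 (SE, adjusted p = 0.00122 in limma). Hvcn1 was thus 4.99-fold higher, with a gap between the groups many times the distance between replicates. Noxo1, an organizer of the related oxidase NOX1, read -2.18 and -2.48 with WGP and -1.56 and -1.82 in medium. Its fall of -0.64 ± 0.17 (SE, adjusted p = 0.0428 in limma) was lost without any 1 of the 4 arrays (adjusted p of 0.0645 to 0.151), without the filter (0.154) and with normexp (-0.02, adjusted p = 0.857).

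Regulators of the oxidase and of Rac moved both ways. Of 22 genes, 20 were tested, 7 rose and 4 fell, with a median change of 0.19, beside 23.5% higher and 17.2% lower among all tested genes. Among those that rose were Pla2g4a, the cytosolic phospholipase that releases arachidonic acid (1.48 ± 0.11, SE, adjusted p = 0.00291 in limma, but 0.71 with normexp), and Pik3r5, a regulatory subunit of PI3-kinase gamma (1.40 ± 0.10, SE, adjusted p = 0.00276). Vav1, an exchange factor that loads Rac with GTP, read 7.28 and 7.24 with WGP and 6.10 and 6.01 in medium (1.20 ± 0.10, SE, adjusted p = 0.00329). Among those that fell were Pik3cg, the catalytic subunit of PI3-kinase gamma (-1.90 ± 0.16, SE, adjusted p = 0.00336, but -0.53 with normexp), and Dock2, a Rac exchange factor of blood cells (-1.44 ± 0.15, SE, adjusted p = 0.00514). Pak1, a kinase bound by active Rac, was well above background on both medium arrays and neither WGP array. It was at least 2.39-fold lower with WGP. It passed the filter only through the medium arrays, where it is high, so no p-value is given. Its call, counted among the 4 that fell, adds no support. That call was lost without either medium array, without the filter and with normexp. Over 13 alternatives its log2 change ran from -2.33 to -0.10, so the bound does not hold under every setting. The subunits of PI3-kinase gamma thus went opposite ways, and so did the exchange factors Vav1 and Dock2. Without medium replicate 2, 7 of these 20 genes were called in place of 11, and 6 of 22 without the filter.

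Genes of copper handling, on which Sod1 and Sod3 depend for their metal, rose in part. Of 6 genes, 5 were tested and 3 rose, with a median change of 0.82, beside 23.5% higher among all tested genes. They were the copper transporters Slc31a1 (0.91 ± 0.10, SE, adjusted p = 0.00551 in limma) and Slc31a2 (1.15 ± 0.09, SE, adjusted p = 0.00329), and Atox1, the chaperone that hands copper to the Golgi pumps (0.82 ± 0.12, SE, adjusted p = 0.0113). Atox1 no longer passed without WGP replicate 2 (adjusted p = 0.0604) and without the filter (0.0661). Ccs, which loads copper into Sod1, read 3.90 and 3.97 with WGP and 4.02 and 4.08 in medium and did not pass (-0.12 ± 0.10, SE, adjusted p = 0.372).

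Dismutases make hydrogen peroxide, and among 17 genes of its removal, all of them tested, 7 rose and 2 fell, with a median change of 0.23, beside 23.5% higher and 17.2% lower among all tested genes. Gpx7, which was not called, was well above background on neither WGP array. It passed the filter only through the medium arrays, where it is high, so no test is given for it. Srxn1, which repairs overoxidised peroxiredoxins, read 7.92 and 7.54 with WGP and 3.55 and 3.39 in medium, the largest rise in the list (4.26 ± 0.17, SE, adjusted p = 0.00122 in limma). Thioredoxin reductase of the cytosol, Txnrd1, rose by 3.64 ± 0.16 (SE, adjusted p = 0.00127, 2.91 with normexp) and the peroxiredoxin Prdx1 by 2.22 ± 0.12 (SE, adjusted p = 0.00178). The secreted glutathione peroxidase Gpx3 changed by -0.88 ± 0.10 (SE, adjusted p = 0.00574). Txnrd2, the reductase of the mitochondria, changed by -0.74 ± 0.13 (SE, adjusted p = 0.0159). With WGP replicate 1, WGP replicate 2 or medium replicate 1 left out, Txnrd2 no longer passed (adjusted p of 0.0503, 0.0762 and 0.0561), nor did it without the filter (0.0827).

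**Figure D3:**
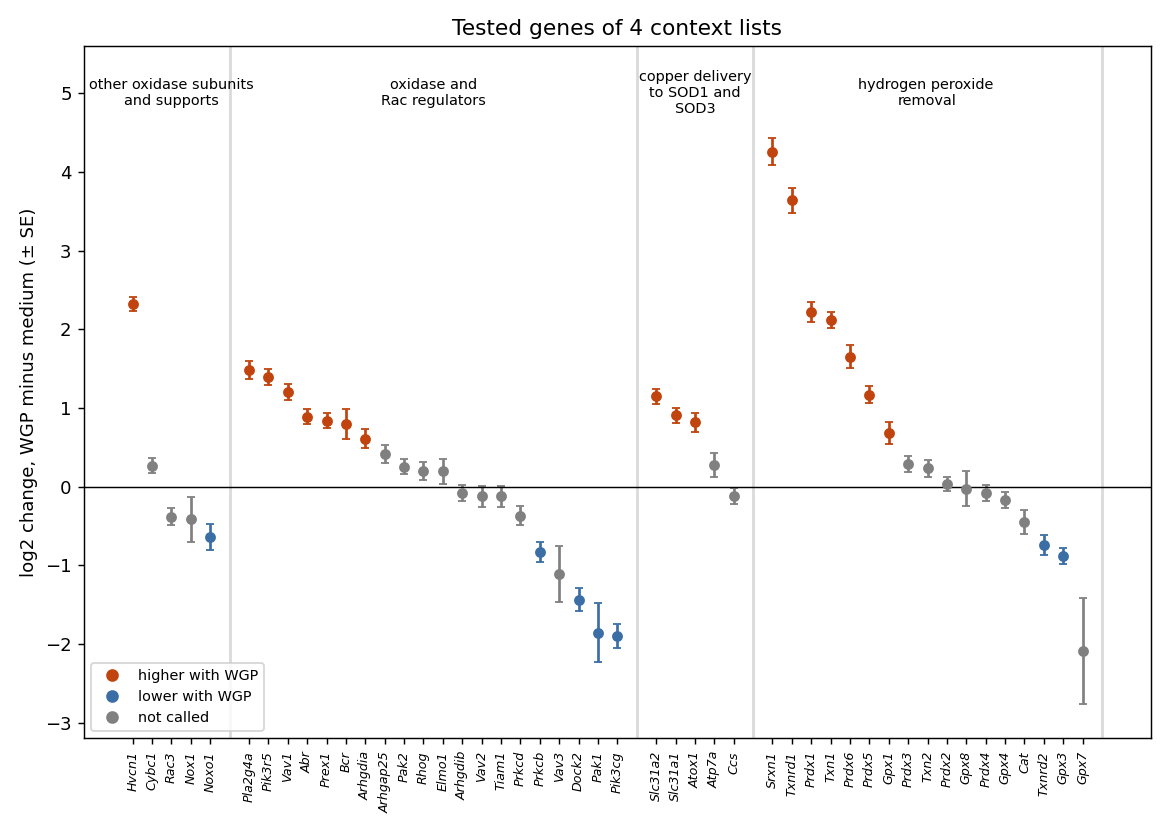
Log2 change, WGP minus medium, of every tested gene of the 4 context lists, with its SE from limma (n = 2 arrays per group), sorted by size within each list and colored by call. Srxn1 at 4.26 and Txnrd1 at 3.64 lead the peroxide removal genes, Hvcn1 at 2.32 leads the oxidase supports, and the oxidase and Rac regulators spread to both sides of 0. Pak1 and Gpx7 passed the filter only through the medium arrays, where they are high. Their drawn changes, SE and colors therefore add no support.

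Other processing choices left most of the 9 changes where they were (Sod3 apart, whose change with normexp was 0.41). Sod2, Ncf4, Cybb and Rac2 kept their direction in all 14 alternatives. Their adjusted p in limma was under 0.05 in each alternative that left no array out. Sod3 kept its direction in all 13 alternatives that gave it a value. As it passed the main filter only through its bright WGP arrays, its calls there add no support. The alternatives are not independent checks, since some reuse the copied replicate 3 files. Cyba kept its call in 13 of 14, with an adjusted p = 0.0549 without the filter on dim probes. Ncf1 and Rac1 also crossed the threshold, and Sod1 crossed 0. Scaling to the array median in place of the 75th percentile raised the median change of all genes to 0.20, against 0.03, and made 73.0% of the called genes higher ones, against 57.8%. Under it 6 of the 9 genes were called, Rac2 being the one that fell. Ncf1 lost its call (-0.38, adjusted p = 0.155).

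**Figure D4:**
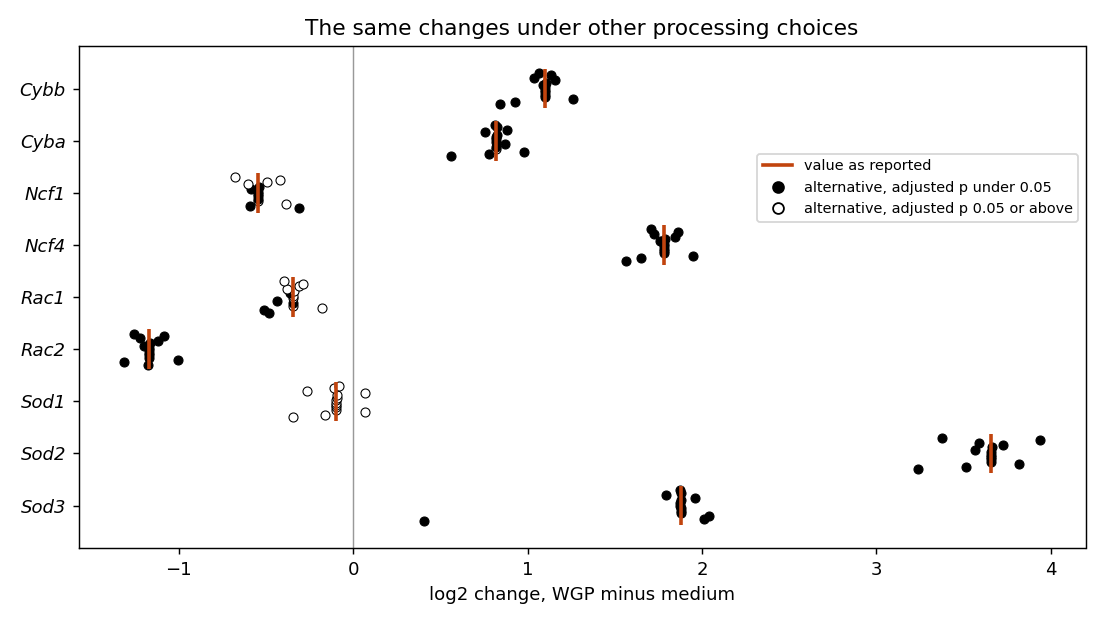
Log2 change, WGP minus medium, of each gene as reported (vertical line) and under each alternative setting (points, filled where the adjusted p from limma was under 0.05). Points of Sod2, Ncf4, Cybb and Rac2 are filled throughout, those of Sod1 are open and fall on both sides of 0, and the lowest Sod3 point (0.41) is that with normexp background correction.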

How the data were processed

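RNA of macrophages kept 6 h with or without WGP was measured on 1-colour Agilent arrays. Per the file headers and the submitters' processing notes, spot intensities were extracted with Agilent Feature Extraction 10.7.3 and deposited by the authors as processed signal, background-subtracted and detrended within the array, with no normalization between arrays. The deposited file of WGP replicate 3 held 1.30 times the processed signal of WGP replicate 1 (largest deviation 0.498%), and medium replicate 3 held the average signal of the other medium files (largest deviation 0.695%).

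The 1377 control spots and all outlier flags were removed, and no spot was flagged as saturated. Signals were put on the log2 scale, less the 75th percentile of their array, and the spots of a probe were averaged. Of 39429 probes, 26761 were named through accessions in a RefSeq table of GRCm38.p6. The array design is on the older build mm9, so no probe coordinates are given. Probes well above background (in a share of at least 0.5 of their spots) on both arrays of at least 1 group were kept (18443), and the brightest stood for each of 10948 genes. The test was limma's (version 3.58.1, lmFit and eBayes, R 4.3.3), with a threshold of 0.05, after a check on simulated data. All 9 members were named. From each context list up to 3 genes with the largest called rises and up to 3 with the largest called falls were named, and the 3 genes nearest to Sod2. Ccs was added after its values were seen.

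Some items of the planned lists are not reported here. The members and lists were chosen with earlier results of these data known. Alternatives changed the background correction, the scaling, the filter, the probe choice, the block, the use of replicate 3 and the arrays left out. Normexp used the median spot signal in place of the planned mean signal. Over the 10948 tested genes, the deviations of replicate 1 from its group mean correlated at 0.14 between WGP and medium. With 2 arrays per group, the deviations of replicate 2 are the mirror image and add nothing. Same-numbered arrays share a slide per the file headers. The log2 values of the authors' deposited table, centred per probe on a baseline that stays unknown, differed from the scaled values by at most 0.00947 after centring over 39394 probes. Its columns had medians of 0.0998, 0.130 and 0.100 for WGP replicates 1 to 3 and -0.0144, 0.164 and 0.103 for medium replicates 1 to 3. The number of arrays limits the precision.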

Additional observations from a re-analysis of the deposited data

How the results depend on the processing

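Of 125 values of the 9 genes under other settings, 111 kept their direction and their side of the threshold, 7 lost and 5 gained a call, and 2, both of Sod1, changed sign: the change of Sod1 was 0.066 with median scaling and -0.264 to 0.0701 with 1 array left out, positive without medium replicate 1, for its probe as for the gene. The count of all changed genes, 4461, was 1541 of 20274 without the filter and 7438 with all 6 files as samples, and 2136 to 3226 with 1 array left out. The count of member genes, 7, was 5 to 8 throughout and 6 with any 1 array left out. The count of member probes, 9 of 11, was 3 without the filter and 5 to 7 with 1 array left out. With the replicate block 4081 genes were called. All 7 called member genes kept their calls under it, the Ncf1 probe did not in the fit over probes (adjusted p = 0.0519), and it turned no direction. Rac1 was called with normexp, with quantile normalization, with only probes above background on all arrays and with the mean of its probes (adjusted p of 0.00268 to 0.0462 in limma). It was also called with all 6 files. That setting counts copied arrays as samples, so its calls and counts add no support. The values tallied here come from settings that are not independent of each other. With only probes above background on all arrays Sod3 had no value. Where an array stood alone in its group, it was assumed to vary like the other group. Signal over background limits Sod3, which was not well above it in medium.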
